A study of Mus musculus with 6 samples.

Results

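The genes described here are 32 mouse genes of the p53 pathway, made up of the p53 gene, its main regulators and transcripts that p53 is known to induce. They were chosen by symbol, and each of the 32 symbols matched one row of a count table of 55401 genes. All 32 passed the filter on low counts, so none was left out of the tests, which covered 14661 genes.

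The tumour suppressor p53 is a transcription factor that is held at a low level by the ubiquitin ligase Mdm2 and its relative Mdm4, and that is stabilised by DNA damage and other stresses. It then activates genes for cell cycle arrest, apoptosis, DNA repair and metabolism, including Mdm2 and the phosphatase gene Ppm1d, which close feedback loops onto p53 itself. In tumours of endothelial origin, as in other cancers, loss of p53 function is a known event.

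RNA came from ADC106, a mouse line of angiosarcoma, a malignant tumour of the cells that line vessels. One group of 3 libraries was made from cells given a mimic labelled NC (genotype label WT) and the other 3 from cells given a miR-497 mimic (genotype label miR-497 overexpression). Both mimics, short synthetic RNA duplexes, were used at 12.5 nM, and the RNA was taken on day 3. The labels do not state whether the p53 gene of this line is intact, whether the line is 1 clone, or whether the libraries came from separate cultures, so the p-values measure only the spread between these libraries.

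A mature miRNA pairs with transcripts through its seed, bases 2 to 8. The labels give neither the strand nor the sequence of the miR-497 mimic, so the mouse 5p form is used here. Its sequence is shown first because its seed defines the target sites below, with the seed in capitals (RefSeq, GRCm38.p6, chr11:70234730-70234751, plus strand). The same seed occurs in miR-15a-5p, miR-15b-5p, miR-16-5p and miR-195a-5p.
miR-497a-5p: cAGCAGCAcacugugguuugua

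In the longest 3′ UTR annotated for each gene, 10 of the 32 members held a match to this seed, either TGCTGCT, its 8-base form TGCTGCTA, or GCTGCTA. Of all tested genes with a 3′ UTR, 3617 held such a match and 9242 did not. The sites of the 4 members that were lower with miR-497 and carried one are shown here, with the match in capitals at the 3′ end of 30 bases of 3′ UTR (GENCODE M21 transcripts, GRCm38). Btg2, on the minus strand of chromosome 1, had one site at chr1:134076624-134076653 and an 8-base site at chr1:134076489-134076518.
Btg2 site 1: cacaaaacctttgctttgctctgTGCTGCT
Btg2 site 2: gggaaccacacgacagtctgaaTGCTGCTA
Phlda3 (plus strand, chr1:135768921-135768950) had 1 site, and Mdm4 (minus strand, chr1:132988000-132988029) had 1 of the GCTGCTA kind. The Mdm4 site lies in its longest 3′ UTR, of 5436 bases, and is absent from its shortest, of 302 bases.
Phlda3: tcctgtgcctggggggggtctccTGCTGCT
Mdm4: actgtggagccctctaaggctaaGCTGCTA
Tigar, on the minus strand of chromosome 6, had 4 sites, at chr6:127087820-127087849, chr6:127086895-127086924, chr6:127086722-127086751 and chr6:127086191-127086220.
Tigar site 1: tctgaagggagggacttggcctcTGCTGCT
Tigar site 2: ccctgtaggaaagggattttgatTGCTGCT
Tigar site 3: gaaggaatatgtcgaggctcacaGCTGCTA
Tigar site 4: gactcttgtctggcctgagtctcTGCTGCT
The 2 other members with an 8-base site, Ppm1d (plus strand, chr11:85346952-85346981) and Sesn1 (plus strand, chr10:41907770-41907799), are shown for comparison because neither passed the test for a change. Sesn1, like Btg2, also holds a site of the TGCTGCT kind, at chr10:41907729-41907758, which is not printed.
Ppm1d: ttgctatttcaataacaaatggTGCTGCTA
Sesn1: agcacatggctatttggctgagTGCTGCTA

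The libraries held 25777676 to 36159499 counts. Of 10 endothelial markers, all were tested and detected, with summed levels of 9340 to 10024 CPM (counts scaled to library size) in NC and 8931 to 9437 CPM in miR-497 libraries, and Vwf was the lowest at 4.17 ± 0.639 CPM with NC (SD, n = 3). Mitochondrially encoded genes took 2.03% to 2.15% of the counts with NC and 2.94% to 3.77% with miR-497. Its part in the results below was not tested. In RNA from whole cultures, fewer cells expressing a gene and less RNA per cell cannot be told apart.

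The p53 genes did not move as a block. Expression was higher with miR-497 for 10 members and lower for 9, and 13 did not pass the threshold (edgeR quasi-likelihood test, Benjamini-Hochberg (BH) adjusted p under 0.05 over all tested genes). The share of members called was 59.4%, against 49.8% of all tested genes. By direction it was 31.2% of members higher, against 23.8% of all tested genes, and 28.1% lower, against 26.0%. The median log2 fold change (miR-497 over NC) was -0.01 for the members and -0.02 for all tested genes, and the median absolute log2 fold change was 0.27 and 0.34. The 3 miR-497 values lay all above or all below the 3 NC values for 23 members, or 11 above and 12 below, where 57.4% of all tested genes were separated in this way. Of the 32 members, 1 was called with a rise of 2-fold or more (Trp53inp1) and 1 with such a fall (Phlda3). Among all 14661 tested genes these counts were 532 and 761. Gdf15, which was not called, had a log2 fold change of -1.61.

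**Figure D1:**
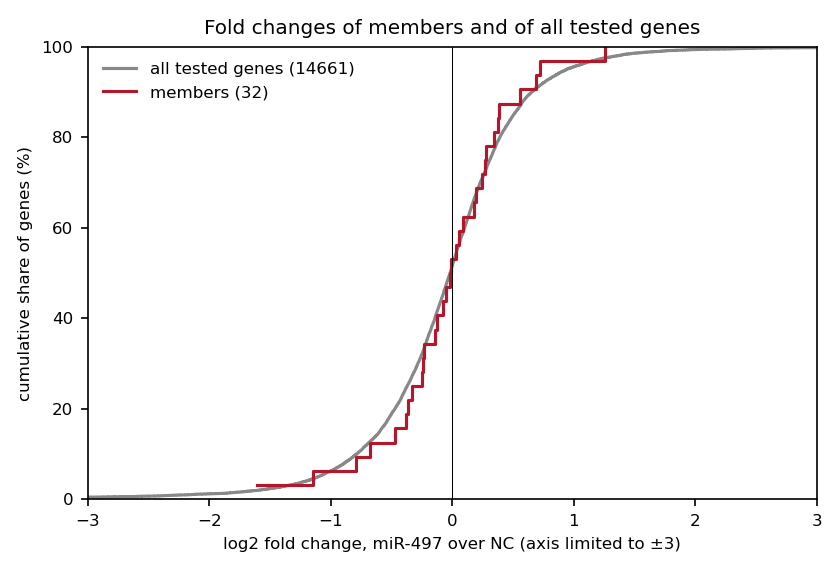
Cumulative share of genes (y axis, percent) by log2 fold change of miR-497 over NC (x axis, shown from -3 to 3), for the 32 members (red steps) and the 14661 tested genes (grey). Both curves cross the middle close to 0, with medians of -0.01 and -0.02, and the members run from -1.61 (Gdf15) to 1.25 (Trp53inp1).

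Among the regulators, the p53 transcript itself rose while Mdm2 and Ppm1d did not pass the test and Mdm4 fell slightly. Trp53 (ENSMUSG00000059552, chr11:69580359-69591873, plus strand) was at 244, 260 and 248 CPM in the NC libraries and at 347, 318 and 315 CPM in the miR-497 libraries. All 3 miR-497 values were above all 3 NC values, a rise of 1.30-fold (log2 fold change 0.38, SE 0.0548, edgeR BH-adjusted p = 1.96e-05). Of the 50-base words in its transcripts 5.64% also occur in other genes, mainly the pseudogene Trp53-ps, which had 0 to 5 counts per library.

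Mdm2 (ENSMUSG00000020184), the ubiquitin ligase that targets p53 for degradation and is itself a p53 target, was at 216, 218 and 218 CPM with NC and at 230, 213 and 223 CPM with miR-497. Its values overlapped between the groups. The log2 fold change was 0.03 (SE 0.0507, edgeR BH-adjusted p = 0.662), with an approximate 95% interval of -0.07 to 0.13.

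Mdm4 (ENSMUSG00000054387), which binds the p53 activation domain and inhibits it, was at 130, 118 and 111 CPM with NC and at 90.8, 100 and 110 CPM with miR-497. The highest miR-497 library lay just under the lowest NC library. The fall was 1.19-fold (log2 fold change -0.25, SE 0.0719, edgeR BH-adjusted p = 0.00741) and did not pass the threshold without miR-497 replicate 1 (-0.19, edgeR BH-adjusted p = 0.0532). Its pseudogene Mdm4-ps, with which it shares 8.61% of its 50-base words, had 0 counts in every library.

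Ppm1d (ENSMUSG00000020525) encodes the phosphatase Wip1, which dephosphorylates p53 and its kinases and is itself induced by p53. Its levels were 39.9, 43.9 and 47.2 CPM with NC and 44.2, 42.1 and 43.3 CPM with miR-497, and the miR-497 libraries all lay within the range of the NC libraries. The log2 fold change was -0.02 (SE 0.0742, edgeR BH-adjusted p = 0.881; 95% interval -0.16 to 0.13), although the gene carries an 8-base site.

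**Figure D2:**
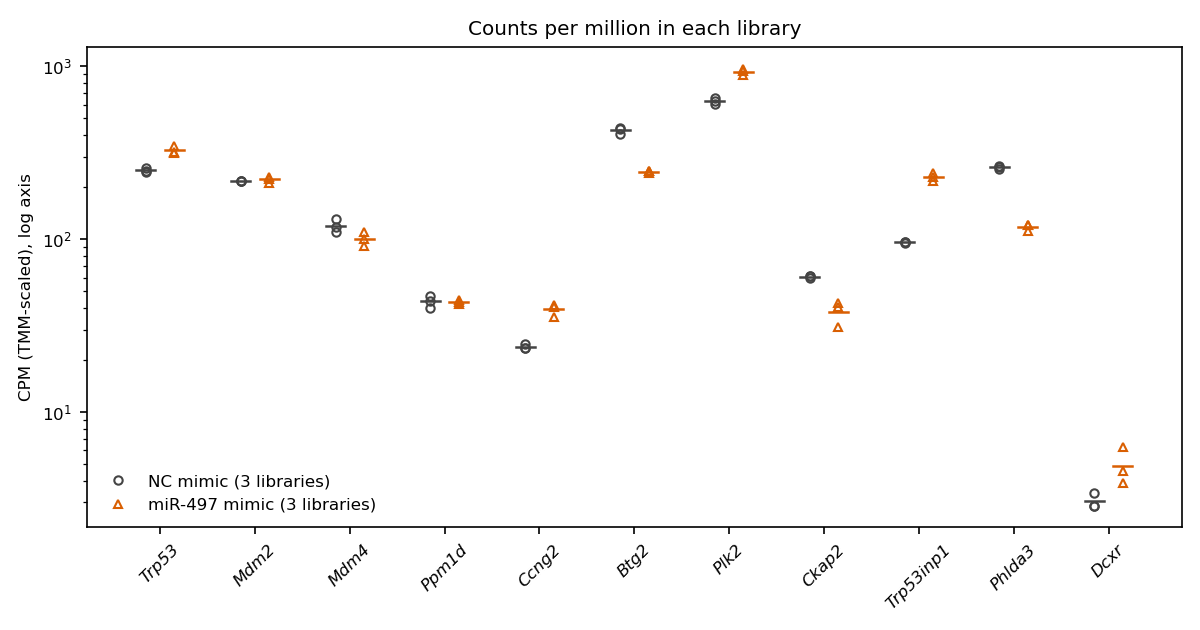
CPM scaled by TMM (y axis, log scale) in each library for the 4 regulators and the 7 members that passed the test with a log2 fold change of at least 0.5 in size. Circles are the 3 NC libraries, triangles the 3 miR-497 libraries and bars the group means; Trp53inp1 (95.2 to 96.9 against 217 to 242 CPM) and Phlda3 (253 to 265 against 111 to 121 CPM) show the widest gaps among them in opposite directions.

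Of the 8 members that act on the cell cycle, 2 rose (Ccng2 and Plk2), 4 fell (Btg2, Ckap2, Plk3 and Gtse1) and 2 did not pass the test. The share called was 75%, against 49.8% of all tested genes, and the difference was not tested. Ccng2 (ENSMUSG00000029385), an unconventional cyclin linked to arrest, was at 23.4, 23.6 and 24.7 CPM with NC and at 41.7, 35.6 and 40.8 CPM with miR-497. Every miR-497 library was above the NC libraries, which were close together, and the rise was 1.65-fold (log2 fold change 0.72, SE 0.0774, edgeR BH-adjusted p = 8.09e-07). Plk2 (ENSMUSG00000021701), a polo-like kinase of centriole duplication, was at 608, 632 and 654 CPM with NC and at 934, 893 and 967 CPM with miR-497. The groups were far apart relative to their spread, with a rise of 1.48-fold (log2 fold change 0.56, SE 0.0557, edgeR BH-adjusted p = 3.16e-07).

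Btg2 (ENSMUSG00000020423), an antiproliferative gene that recruits the mRNA deadenylation machinery, fell most in this group of genes. It was at 406, 437 and 437 CPM with NC and at 249, 240 and 247 CPM with miR-497, with no overlap and little spread within either group. The fall was 1.74-fold (log2 fold change -0.80, SE 0.0528, edgeR BH-adjusted p = 2.62e-09). The kinase relative Plk3 fell by 0.36 in log2 units (SE 0.0654, edgeR BH-adjusted p = 0.000187), opposite to Plk2.

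Gtse1 and Ckap2 encode proteins of the spindle and microtubules whose transcripts peak late in the cell cycle; GTSE1 also binds p53 and moves it out of the nucleus. Ckap2 (ENSMUSG00000037725) was at 59.6, 61.6 and 61.2 CPM with NC and at 42.6, 40.4 and 31.1 CPM with miR-497. The miR-497 libraries were all lower, and replicate 3 was the lowest of them, with a fall of 1.6-fold (log2 fold change -0.68, SE 0.0930, edgeR BH-adjusted p = 1.16e-05). For Gtse1 the log2 fold change was -0.23 (SE 0.0583, edgeR BH-adjusted p = 0.00309). Ccng1, a strong p53 target that recruits a phosphatase to Mdm2, had 652 to 692 CPM with NC and 661 to 732 CPM with miR-497 (log2 fold change 0.06, edgeR BH-adjusted p = 0.414). Gadd45a, a stress-induced inhibitor of growth, had a log2 fold change of 0.18 (edgeR BH-adjusted p = 0.0939), and 19.1% of its exon bases lie under the opposite-strand gene E230016M11Rik, so reads of the pair may be mixed in an unstranded count. E230016M11Rik was at 1.68 CPM with NC and 1.43 CPM with miR-497, against 22.4 and 25.3 CPM for Gadd45a.

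The 11 members linked to apoptosis held the members' largest called rise and largest called fall. Trp53inp1, Zmat3 and Apaf1 rose, Phlda3, Pidd1 and Tnfrsf10b fell, and 5 did not pass the test. This made 54.5% called, against 49.8% of all tested genes. Trp53inp1 (ENSMUSG00000028211, chr4:11156431-11174379, plus strand), a nuclear protein that promotes p53 phosphorylation and autophagy, was at 96.5, 96.9 and 95.2 CPM with NC and at 242, 217 and 230 CPM with miR-497. The lowest miR-497 library was more than double the highest NC library, and the rise was 2.39-fold (log2 fold change 1.25, SE 0.0546, edgeR BH-adjusted p = 1.83e-11).

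Phlda3 (ENSMUSG00000041801, chr1:135766119-135769136, plus strand), a p53-induced inhibitor of Akt, was at 265, 262 and 253 CPM with NC and at 120, 121 and 111 CPM with miR-497. All miR-497 libraries were below every NC library, a fall of 2.22-fold (log2 fold change -1.15, SE 0.0536, edgeR BH-adjusted p = 4.26e-11). Its 3′ UTR of 727 bases holds the single site printed above.

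Zmat3, a zinc finger protein that binds RNA, rose by 0.34 in log2 units (SE 0.0514, edgeR BH-adjusted p = 3.37e-05), from 93.3 ± 1.19 to 118 ± 2.11 CPM (SD, n = 3), although its 3′ UTR of 6692 bases holds 4 sites. Those that start at bases 2725 and 2728 of this 3′ UTR overlap. Apaf1, the scaffold of the apoptosome, rose from 107 ± 0.846 to 130 ± 3.41 CPM (log2 fold change 0.28, edgeR BH-adjusted p = 0.000212). The death receptor gene Tnfrsf10b fell from 106 ± 5.83 to 84.2 ± 2.37 CPM (-0.33, edgeR BH-adjusted p = 0.00015). Pidd1, which activates caspase-2, fell from 10.9 ± 0.808 to 8.35 ± 0.561 CPM (-0.38, edgeR BH-adjusted p = 0.0162), and its call was lost without NC replicate 2 (adjusted p = 0.0977) or without miR-497 replicate 1 (adjusted p = 0.0532).

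The death receptors Fas and Eda2r, the membrane protein gene Perp, the nuclease gene Aen and Ei24 did not pass the test. Fas and Perp were low, with 153 to 257 and 51 to 163 counts per library, and their log2 fold changes were -0.15 (95% interval -0.48 to 0.19) and -0.47 (-1.01 to 0.07). Eda2r (-0.08, edgeR BH-adjusted p = 0.233) and Aen (-0.13, edgeR BH-adjusted p = 0.0925) had all miR-497 values below all NC values but by margins too small to be called. Ei24 was at 64.7 ± 6.37 and 62.4 ± 2.85 CPM (SD, n = 3; edgeR BH-adjusted p = 0.60).

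In DNA repair and nucleotide supply, 3 of 5 members rose by small amounts and none fell. Of all tested genes 23.8% were higher and 26.0% lower, and a difference for these 5 members was not tested. Rrm2b, a p53-inducible subunit of ribonucleotide reductase, rose from 32.1 ± 2.92 to 41.6 ± 2.67 CPM (SD, n = 3; log2 ratio 0.37, SE 0.0809, edgeR BH-adjusted p = 0.00101), and 15.1% of its 50-base words also occur in other genes, mainly Gm8616, which had 0 counts in every library. Ercc5, the nuclease XPG that cuts beside a lesion in nucleotide excision repair, had a log2 fold change of 0.24 (edgeR BH-adjusted p = 0.00899). Xpc, which recognises lesions in the same pathway, had 0.19 (edgeR BH-adjusted p = 0.028), and passed in none of the fits without NC replicate 2 (adjusted p = 0.133), without miR-497 replicate 1 (0.0625) or without miR-497 replicate 3 (0.0502). The translesion polymerase gene Polk was at 48.1 ± 1.92 and 47.7 ± 0.894 CPM (log2 fold change -0.01, edgeR BH-adjusted p = 0.903). Ddb2, a damage sensor, had 83 to 210 counts per library (0.09, edgeR BH-adjusted p = 0.77), and 23.8% of its exon bases lie under Acp2 on the opposite strand, which rose by 0.37. Acp2 was at 36.2 CPM with NC and 46.8 CPM with miR-497, against 4.94 and 5.28 CPM for Ddb2. Reads of Acp2 may thus enter the Ddb2 values in an unstranded count.

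Of the metabolic and secreted members, Dcxr rose, Tigar fell and Sesn1 and Gdf15 did not pass the test (50% called, against 49.8% of all tested genes). Dcxr (ENSMUSG00000039450), a reductase of L-xylulose and dicarbonyls, was at 3.38, 2.88 and 2.88 CPM with NC and at 4.54, 6.26 and 3.90 CPM with miR-497. The groups did not overlap, but miR-497 replicate 2 stood well above the others. The rise of 1.61-fold (log2 fold change 0.69, SE 0.221, edgeR BH-adjusted p = 0.0157) fell to 0.47 without that library (adjusted p = 0.122).

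Tigar, which lowers fructose-2,6-bisphosphate and so slows glycolysis, went from 49.2 ± 2.89 to 41.6 ± 0.757 CPM (SD, n = 3; log2 ratio -0.24, edgeR BH-adjusted p = 0.00771), a call lost without NC replicate 3 (-0.19, adjusted p = 0.0551). Sesn1, a stress sensor upstream of mTORC1, was at 6.91 ± 0.569 and 8.31 ± 0.659 CPM (0.27, edgeR BH-adjusted p = 0.121). Gdf15, a secreted stress cytokine, had only 15, 15 and 29 counts with NC and 0, 7 and 11 with miR-497. All 3 counts with miR-497 were below those with NC, and the log2 fold change of -1.61 (SE 0.70) missed the threshold (edgeR BH-adjusted p = 0.0671). It passed in 5 of 14 alternative fits, one of them without miR-497 replicate 3 (-2.35, adjusted p = 0.0375).

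**Figure D3:**
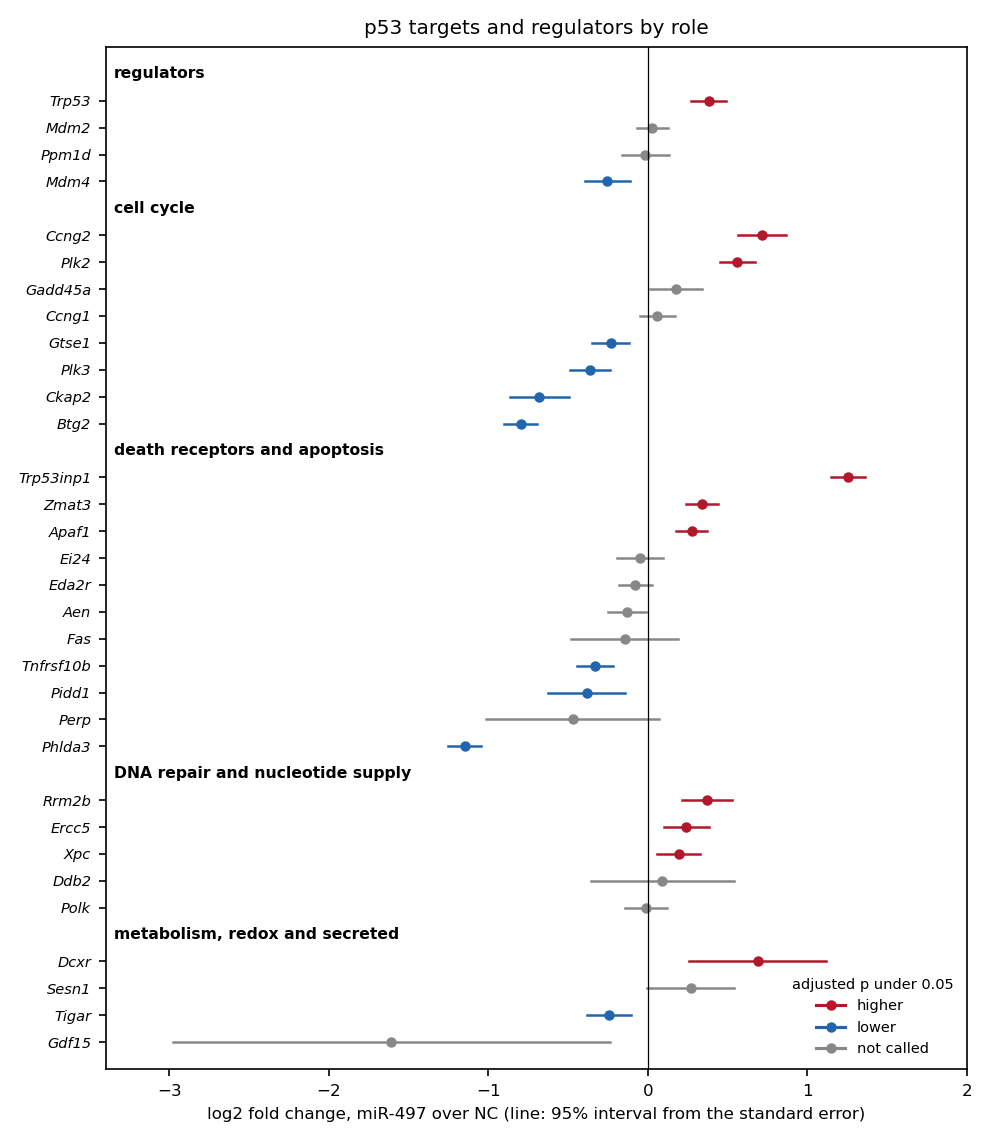
Log2 fold change of miR-497 over NC (x axis) for the 32 members grouped by role (rows). Points are the edgeR estimate and lines the approximate 95% interval from its standard error. Red members rose (10), blue members fell (9) and grey members did not pass an adjusted p of 0.05 (13); each role except DNA repair holds both red and blue members.

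Per kilobase of annotated exon, the members spanned a wide range of levels with NC. Ccng1 was the highest at 191 CPM per kilobase, followed by Phlda3 at 167, Btg2 at 155 and Plk2 at 141, and Gdf15 was the lowest at 0.341. With miR-497 the order at the top was Plk2 at 207, Ccng1 at 199, Btg2 at 89.5 and Trp53 at 80.7, with Phlda3 at 75.3.

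The members that carry a miR-497-5p site were divided in their response. Of the 10, 4 fell (Btg2, Phlda3, Mdm4 and Tigar), 2 rose (Zmat3 and Xpc) and 4 did not pass the test (Ppm1d, Ccng1, Eda2r and Sesn1). Their median log2 fold change was -0.05. Of the 22 members without a site, 8 rose and 5 fell, with a median of 0.01. Over all tested genes with a 3′ UTR, 40.9% of the 3617 with a site and 23.5% of the 9242 without one were lower. Of the same genes 18.2% with a site and 28.3% without one were higher, and the median log2 fold changes were -0.17 and 0.02. The shares of members with a site, 40% lower and 20% higher, were close to those of all genes with one. The 3 members with an 8-base site ranged from -0.80 (Btg2) through -0.02 (Ppm1d) to 0.27 (Sesn1). These are descriptions of few genes, without a test. Ckap2, the third largest called fall among the members, has no site in its 3′ UTR of 571 bases.

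The windows around the transcription starts were searched for the p53 half-site, the 10-base decamer of which a p53 response element holds a pair. The decamer is its own reverse complement, so both strands were covered. RefSeq windows from 250 bases before to 50 after a start (GRCm38.p6) matched 25 of the 32 members, and 11 of these 25 (44.0%) held at least 1 half-site, against 9.55% of 27025 genes with such a window and 8.62% of the 10816 that were tested. The members were listed as known p53 targets and regulators, so this comparison is not independent of how the list was made. A gene with several windows was counted if any of them held a half-site. A full element was counted where 2 half-sites each matched all 10 bases and lay at most 13 bases apart. None of the members' windows held one, and 20 of the 27025 did (0.074%). An element with a mismatch in either half-site was not counted, so this search does not show that a half-site stands alone. The half-sites of the 3 called members that held one are printed in capitals, with that of Mdm2 for comparison, on the strand of the gene. Trp53 lies on the plus strand (chr11:69580274-69580303), Ckap2 on the minus strand (chr8:22186003-22186032), Gtse1 on the plus strand (chr15:85859945-85859974) and Mdm2 on the minus strand (chr10:117710925-117710954).
Trp53: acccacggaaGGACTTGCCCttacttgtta
Ckap2: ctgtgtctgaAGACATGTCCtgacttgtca
Gtse1: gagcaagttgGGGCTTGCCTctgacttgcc
Mdm2: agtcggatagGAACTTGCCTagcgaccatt

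Of the 11 members with a half-site in this window, 1 rose (Trp53), 2 fell (Ckap2 and Gtse1) and 8 did not pass the test, among them Mdm2, Ccng1, Ppm1d, Aen and Sesn1. Of the 14 members whose window held none, 5 rose and 6 fell. The shares called were 27.3% and 78.6%, against 49.8% of all tested genes, and the difference between these small groups of members was not tested. A match is a description of letters and not a bound site, and elements in introns or farther upstream lie outside these windows. The half-site near Trp53 lies in the windows of both Trp53 and its divergent neighbour Wrap53, which was at 22.1 ± 2.03 CPM with NC and 23.1 ± 2.31 CPM with miR-497 (SD, n = 3; log2 ratio 0.06, edgeR BH-adjusted p = 0.612).

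Other targets of p53 were also divided. Of 15 listed, 14 were tested, 3 rose and 3 fell (42.9% called, against 49.8% of all tested genes), and the median log2 fold change was -0.02. With upper-quartile scaling or GC and length offsets, 5 rose. Rprm had at most 1 count per library and was not tested. Cdkn1a, which encodes the Cdk inhibitor p21 and is the classic p53 target, was at 243, 273 and 273 CPM with NC and at 290, 279 and 284 CPM with miR-497. The groups did not overlap, but the log2 fold change of 0.11 (SE 0.0562) missed the threshold (edgeR BH-adjusted p = 0.106). The proapoptotic Bcl2 family genes went both ways. Bbc3 (Puma) rose from 18.1 ± 1.04 to 26.1 ± 2.35 CPM (log2 fold change 0.53, edgeR BH-adjusted p = 0.00012), and Bax fell from 140 ± 6.29 to 122 ± 4.22 CPM (-0.20, edgeR BH-adjusted p = 0.00548). Ephx1, an epoxide hydrolase, rose most, from 33.3 ± 2.68 to 82.2 ± 6.42 CPM (1.30, edgeR BH-adjusted p = 7.35e-10). Igfbp3, which binds insulin-like growth factors, rose by 0.31 (edgeR BH-adjusted p = 0.000465). Sesn2, a relative of Sesn1, fell by 0.44 (edgeR BH-adjusted p = 3.35e-05) and the matrix gene Thbs1 by 0.35 (edgeR BH-adjusted p = 0.000105).

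Upstream of p53, transcripts of the damage kinases Atm, Atr and Chek1 fell and that of Prkdc rose. Of 20 listed genes 18 were tested, 4 rose and 4 fell (44.4% called, against 49.8% of all tested genes). The median log2 fold change was -0.01, and Trp63 and Trp73, the paralogs of Trp53, had at most 4 counts in any library. Atm, the kinase that answers double-strand breaks, fell from 70.8 ± 5.63 to 39.5 ± 3.26 CPM (SD, n = 3; log2 ratio -0.84, edgeR BH-adjusted p = 1.45e-07). Chek1, the effector kinase of Atr, fell by 0.88 (edgeR BH-adjusted p = 3.26e-06) and Atr itself by 0.45 (edgeR BH-adjusted p = 0.00222). Hipk2, which phosphorylates p53, had a called fall of 0.29, though its libraries overlapped between groups (edgeR BH-adjusted p = 0.0354). Prkdc, the DNA-dependent protein kinase, rose by 0.51 (edgeR BH-adjusted p = 0.000148), and Chek2 at 0.14 did not pass (edgeR BH-adjusted p = 0.105). The acetyltransferase gene Kat5 rose from 7.27 ± 0.766 to 14.9 ± 1.30 CPM (1.04, edgeR BH-adjusted p = 2.34e-06), with 12.1% of its exon bases under the opposite-strand gene Rnaseh2c, which was not called (0.09, edgeR BH-adjusted p = 0.395). Ppp1r13b, a p53-binding protein of the ASPP family, rose by 0.46 (edgeR BH-adjusted p = 3.49e-05), and Trp53bp1, which binds at double-strand breaks, by 0.17 (edgeR BH-adjusted p = 0.0346), with 15.04% of its exon bases under the opposite-strand gene Tubgcp4, which was not called (-0.14, edgeR BH-adjusted p = 0.133).

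**Figure D4:**
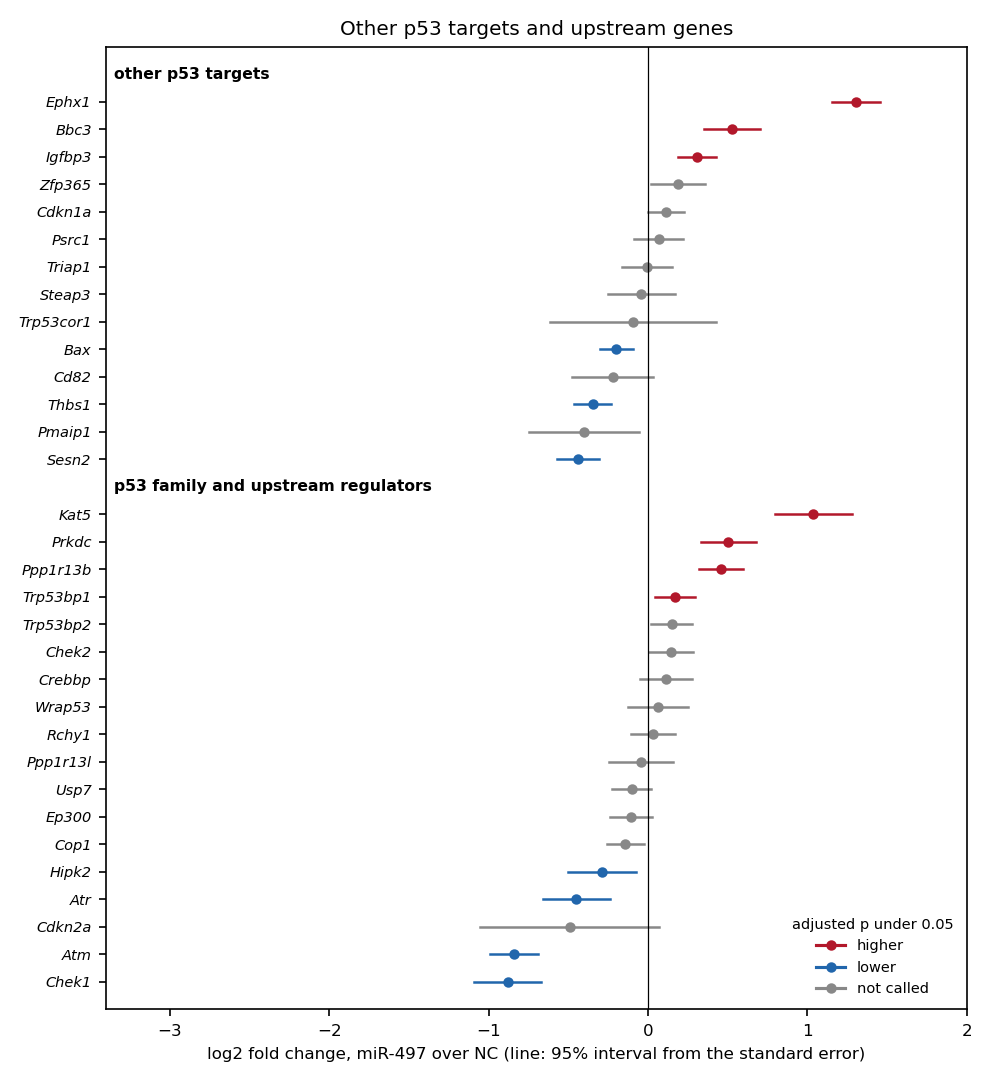
Log2 fold change of miR-497 over NC (x axis) for the 14 tested other p53 targets and the 18 tested genes of the p53 family and upstream of it (rows). Lines are the approximate 95% interval from the standard error. Red genes rose (3 and 4), blue genes fell (3 and 4) and grey genes did not pass an adjusted p of 0.05; Ephx1 (1.30) and Chek1 (-0.88) mark the ends of the called genes.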

How the data were processed

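Poly(A)-enriched RNA of 6 libraries was measured as reads per gene. The deposited values are raw counts that the authors had not normalized; STAR 2.5.4b, featureCounts, Subread 1.6.1, edgeR 3.32.1 and GRCm38 are named per the submitters' processing notes, without roles, while the annotation, strand setting and handling of multiply aligned reads are not given in the sources used here. Totals were 25777676 to 36159499 counts. Symbols, exons and 3′ UTRs came from GENCODE M21 (GRCm38), which matched 55141 of 55401 identifiers.

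From these, all genes were fitted together with edgeR 4.0.16 in R 4.3.3: filterByExpr (minimum count 10, minimum total 15), TMM scaling and a quasi-likelihood F-test with group as the only term, 2-sided, with Benjamini-Hochberg adjustment over 14661 genes and a threshold of 0.05. The standard error is the log2 fold change divided by the square root of F, and 95% intervals span 1.96 standard errors on each side. These intervals are approximate and somewhat too narrow for the F-test. That of Gadd45a, 0.01 to 0.34, lies above 0 although its unadjusted p was 0.0525 (edgeR quasi-likelihood test). CPM uses TMM-scaled library sizes. Levels per kilobase divide CPM by annotated exon length. The share of a member's 50-base words found in transcripts of other genes marks possible shared reads. The fit was tested on simulated data.

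Alternatives were DESeq2 1.42.0 size factors and Wald test, upper-quartile scaling, 2 other filters, limma 3.58.1 voom, per-library GC and length offsets, the replicate number as a block and each library left out. Values per library are given for the 4 regulators and for members called with a log2 fold change of at least 0.5 in size. Of each list of other pathway genes the 3 largest called rises and falls and Cdkn1a were to be named; Hipk2, Trp53bp1, Chek2, Rprm, Trp63, Trp73, Wrap53 and the endothelial markers in the closing section were named after their values were seen, and so were the counts per library of Gdf15. One gene of the list of other p53 targets is not reported here and was left out of its counts. The members and lists were chosen with earlier results of these data known.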

Additional observations from a re-analysis of the deposited data

How the results depend on the processing

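The counts of members ran from 9 to 11 higher and from 7 to 10 lower over 15 alternatives, and all counts of genes stayed within 1.5 times their main values except the other p53 targets that rose, 3 as reported and 5 with upper-quartile scaling and with GC and length offsets. Of 479 pairs of member and alternative, 442 gave the main call and sign, 13 lost the call, 7 gained one and 17 changed sign. The sign changes were all in members that did not pass the test. Polk was at 0.00475 with DESeq2 size factors, 0.0346 with upper-quartile scaling, 0.00479 with the DESeq2 Wald test, 0.0905 with GC and length offsets and 0.0907 with these and the replicate block, and ran from -0.0322 to 0.0102 with single libraries left out. Ppm1d was at 0.0317 with upper-quartile scaling, 0.0287 with the offsets and 0.0326 with offsets and block, and ran from -0.0866 to 0.0521 with libraries left out. Eda2r was at 0.0252 with the offsets, with and without the block. Ei24 was at 0.00257 with offsets and block and ran from -0.123 to 0.0372 with libraries left out, and Ddb2 ran from -0.155 to 0.296. The cause was not tested. The members' median log2 fold change lay between -0.0252 and 0.0597, on both sides of 0, while that of all genes lay between -0.0364 and 0.0313.

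With the replicate block, 9 members were higher and 10 lower, since Xpc (adjusted p = 0.0521) lost its call and Gdf15 (-1.78, adjusted p = 0.0482) gained one. Gdf15 also passed with no filter (adjusted p = 0.0419), with limma voom (0.0389) and with offsets and block (0.0345). Same-numbered libraries correlated at -0.119, -0.0351 and -0.133 in their deviations from the group means, and libraries with unlike numbers at -0.0348 to 0.158. With 3 libraries per group and deviations taken within each group, these values cannot show whether the numbers pair the libraries. Offsets with the block ended the calls of Gtse1 (adjusted p = 0.0581), Pidd1 (0.0871) and Tigar (0.0765), and offsets alone that of Pidd1 (0.0529), and brought in Ccng1 (0.17, adjusted p = 0.0416). Upper-quartile scaling brought in Gadd45a (0.22, adjusted p = 0.0425). With the shortest 3′ UTR the median of members with a site was 0.0214, and with 8-base sites alone -0.0155, against -0.0468. Depth limits Gdf15, Perp, Ddb2, Fas and Dcxr, whose counts were at most 257 per library.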

Other observations

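The endothelial markers used to check the cell type moved in both directions. Of 10, 6 rose and 2 fell (edgeR adjusted p under 0.05), against 23.8% higher and 26.0% lower among all tested genes. Emcn, a sialoglycoprotein of endothelial cells, rose from 373 ± 3.8 to 764 ± 50.2 CPM (SD, n = 3; log2 ratio 1.03, edgeR adjusted p = 3.22e-10), and Pecam1, the adhesion molecule CD31, fell from 3554 ± 155 to 2471 ± 126 CPM (-0.52, edgeR adjusted p = 2.67e-06). Cdh5 and Tek rose by 0.20 and 0.33 on the log2 scale, and Kdr was at 1352 ± 100 and 1351 ± 88.4 CPM (edgeR adjusted p = 0.99).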
